A study of Mus musculus with 4 samples.

Results

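Complement is a cascade of plasma proteins that marks and lyses cells, and host cells carry inhibitors that stop it on their own membranes. These data describe its components and regulators in mouse ventricle with and without the nuclear receptor ERRα, the product of Esrra. Of 9 genes sought, 7 had a probe set annotated to that gene alone, out of 8251 such genes on the array. They held 8 of the 12422 probe sets that were not array controls. The genes were Cd59a, C1qa, C1qb (2 probe sets), C1qc, Cd55, Serping1 and Hc. C4b was read only by probe sets annotated to C4a as well, and no probe set was annotated to C3, so neither is given a value here. The set was selected on the knockout to wild-type difference of these same arrays, that of Cd59a above all, so those differences are given as a description and support nothing.

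The data were 4 one-colour Affymetrix arrays of ventricle RNA at baseline, 2 labelled as ERRα knockout and 2 as wild type, with 1 scaled signal per probe set. No pressure overload or other treatment was applied to the hearts on these arrays. Strain, age, sex, the structure of the targeted allele and whether the numbered samples were separate animals are not given in the sources used here. The spread between samples may therefore be technical, and 2 arrays per genotype limit the precision. The stronger Esrra probe set gave 8598 and 8038.5 on the wild-type arrays against 922 and 1050.2 on the knockout arrays, and the weaker gave 2688 and 2828 against 83.6 and 55.2, so the labels and the targeted transcript matched. Heart muscle markers were present on all arrays, with Tnnt2, cardiac troponin T, between 85428 and 101481. Signals of different probe sets are not on a common scale, so only arrays are compared below, never one gene's level with another's.

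The cascade starts when C1q, built from the chains C1qa, C1qb and C1qc, binds a target and switches on its proteases, or when C3 is activated directly. Both routes cleave C3 and then C5, the product of Hc, after which the terminal proteins insert a pore into the membrane. Serping1 encodes the C1 inhibitor, a secreted serpin that blocks the C1 proteases. Cd55, or decay-accelerating factor, takes apart the enzymes that cleave C3 and C5, and Cd59a stops assembly of the pore. Both of these are held on the cell surface by a lipid anchor. In tissues C1q comes largely from macrophages, whereas the liver makes most of the C3 and C5 in plasma.

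Cd59a was lower in the knockout ventricles. Its signal was 7853 and 7031 on the wild-type arrays and 1973 and 2529.6 on the knockout arrays. Both knockout arrays lay below both wild-type arrays, and the lower wild-type array was 2.78 times the higher knockout array. The mean signal was 7442 ± 581 for wild type against 2251 ± 393 for knockout (SD, n = 2 each), so that the knockout mean was 30.2% of the wild-type mean. On the log2 scale the difference was -1.73 (SE 0.23), with a spread within genotypes of 0.20. SE here and below is the moderated standard error of the limma fit, which draws partly on the spread of all tested probe sets. Of the 7453 probe sets bright enough to be tested, 16 had a lower difference. Leaving out any 1 array gave differences between -1.91 and -1.55, where the sign could not turn because the genotypes did not overlap. Quantile normalization gave -1.70 and median scaling -1.86, and the other settings left the value at -1.73.

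**Figure D1:**
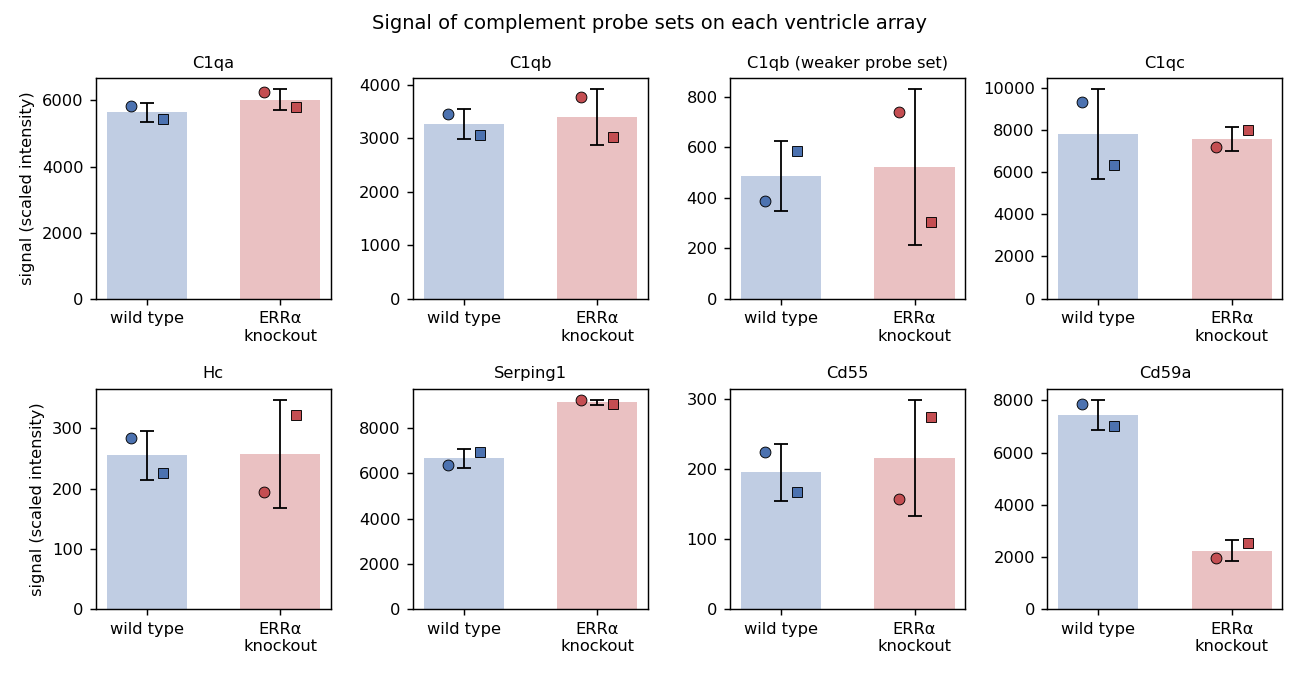
Signal (scaled intensity, linear axes from 0) of the 8 complement probe sets in wild-type and ERRα knockout ventricle; circles are sample 1, squares sample 2, bars the mean and error bars the SD of 2 arrays. Cd59a is near 7442 in wild type and 2251 in knockout, Serping1 is higher on both knockout arrays, and the genotypes overlap in the other 6 panels.

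The promoter of Cd59a is shown because it is the member whose transcript was lower in hearts without a DNA-binding receptor. The stretch is chr2:104095551-104095850 on the plus strand of GRCm38.p6, from RefSeq, and runs from 250 bases before the annotated start to 50 after it. Capitals mark the one match found to any of the motifs searched.
Cd59a: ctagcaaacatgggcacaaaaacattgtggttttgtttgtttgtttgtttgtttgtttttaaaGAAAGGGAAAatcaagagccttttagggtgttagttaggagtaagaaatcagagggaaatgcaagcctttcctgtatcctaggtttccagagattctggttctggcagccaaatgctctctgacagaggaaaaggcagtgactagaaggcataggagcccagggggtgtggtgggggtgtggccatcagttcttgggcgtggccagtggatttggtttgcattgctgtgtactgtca
Motifs were searched on both strands in the promoters of the 6 members that had one in the RefSeq table. The ERR response element TCAAGGTCA was in 0 of the 6 and in 0.423% of all 32851 promoters of that length, and its shorter core AAGGTCA, which lies within it, was in 0 of the 6 and in 4.72% of all. The match in Cd59a was to the core of the interferon-stimulated response element, read on the strand opposite the printed one at positions -187 to -178 with the start as position 0; 3.44% of all promoters hold it. The letters say nothing of binding. The window had 45.7% GC and 1 CpG, against medians of 52.7% and 7 over all promoters.

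Serping1 was higher in the knockout ventricles by a smaller step. It gave 6356 and 6959 on the wild-type arrays and 9214 and 9036 on the knockout arrays. The genotypes did not overlap, with the lower knockout array at 1.30 times the higher wild-type array. The means were 6658 ± 426 and 9125 ± 126 (SD, n = 2 each), 1.37-fold apart (log2 0.46, SE 0.20). The difference stayed between 0.39 and 0.52 when any 1 array was left out and was 0.33 after each array was scaled to its median, a scaling that moved the median of all tested probe sets by -0.13. After quantile normalization it was 0.50, and that of Cd59a -1.70.

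The chains of C1q gave overlapping signals in the genotypes. C1qa gave 5842 and 5435 in wild type and 6254 and 5795 in knockout. The stronger C1qb probe set gave 3462 and 3067 in wild type and 3774 and 3036 in knockout. C1qc gave 9314 and 6311 in wild type and 7184 and 7988 in knockout. On each of these 3 probe sets the genotypes overlapped, and for C1qc the wild-type arrays lay farther apart than the knockout arrays. The log2 differences were 0.10 for C1qa (SE 0.20), 0.055 for C1qb (SE 0.23) and -0.017 for C1qc (SE 0.27). Those standard errors draw partly on all tested probe sets and leave room for changes in either direction. The spread within genotypes was 0.076 for C1qa, 0.18 for C1qb and 0.29 for C1qc.

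A weaker C1qb probe set was less steady, at 389 and 584 in wild type and 741 and 304.9 in knockout. Its log2 difference of -0.0039 (SE 0.51) became -0.64 without knockout replicate 1 and 0.64 without knockout replicate 2. The stronger C1qb probe set ranged from -0.10 to 0.21 and C1qc from -0.30 to 0.26 when 1 array was left out, both turning sign, whereas C1qa stayed between 0.04 and 0.15. C1qa turned to -0.028 with median scaling.

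The 3 C1q genes are neighbours on mouse chromosome 4, and promoters of 2 of them were in the RefSeq table. They are printed to show how far the start regions of subunits of a single protein differ, both on the minus strand of GRCm38.p6, C1qb at chr4:136886151-136886450 and C1qc at chr4:136892865-136893164. Capitals mark a match to GAGGAAGT, a core bound by the macrophage factor PU.1.
C1qb: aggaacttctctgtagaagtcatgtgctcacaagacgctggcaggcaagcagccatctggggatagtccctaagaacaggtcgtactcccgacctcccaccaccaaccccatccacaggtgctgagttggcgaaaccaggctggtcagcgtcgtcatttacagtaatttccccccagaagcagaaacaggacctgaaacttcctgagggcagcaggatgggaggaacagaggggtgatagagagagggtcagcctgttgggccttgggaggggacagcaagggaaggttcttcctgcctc
C1qc: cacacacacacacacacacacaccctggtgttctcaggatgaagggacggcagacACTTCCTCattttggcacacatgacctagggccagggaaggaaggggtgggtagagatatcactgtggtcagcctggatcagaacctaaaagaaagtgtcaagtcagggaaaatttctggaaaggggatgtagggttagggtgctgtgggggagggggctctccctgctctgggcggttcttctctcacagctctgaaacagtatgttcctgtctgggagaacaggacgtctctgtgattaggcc
The match lay in C1qc, on the strand opposite the printed one at -195 to -188, and 3.2% of all promoters hold these letters. C1qb had no match to any of the 6 motifs searched. The GC content was 56.3% in C1qb and 53.3% in C1qc, with 6 and 3 CpG.

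Hc and Cd55 were dim. Hc gave 284 and 226 in wild type and 195 and 321 in knockout. Cd55 gave 224 and 167 in wild type and 158 and 275 in knockout. For both genes 1 knockout array lay below and the other above the 2 wild-type arrays. All of these values stood above the floor of 110 used here but below the mean signal of 350.6 required for testing, and no detection call comes with the deposited values, so whether either transcript was present cannot be told from them. Their log2 differences, -0.018 for Hc and 0.11 for Cd55, turned sign when 1 array was left out, with ranges of -0.38 to 0.34 and -0.29 to 0.51.

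**Figure D2:**
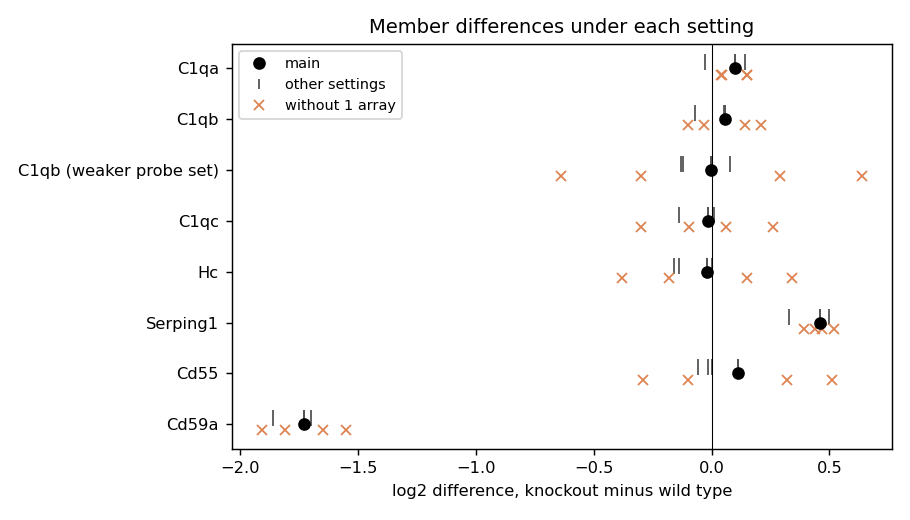
Log2 difference, knockout minus wild type, of each complement probe set; the black circle is the value as reported, ticks are other scalings, floors and filters, and crosses leave out 1 array. Cd59a stays between -1.91 and -1.55 and Serping1 between 0.33 and 0.52, while values for the other 6 probe sets fall on both sides of 0.

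Across all probe sets, limma with Benjamini-Hochberg adjustment called 1 of 7453 (0.0134%), a probe set of Esrra, and 0 of the 6 complement probe sets bright enough to be tested, 1 of which, Cd59a, had an unadjusted p under 0.05, as 6.79% of all tested probe sets did. By a count without a model, 1 of the 6, Cd59a, differed by at least 1.5-fold without overlap between genotypes, where 11% of all tested probe sets did so (4.12% lower and 6.84% higher in knockout). The genotypes failed to overlap at any size for 2 of the 6, Cd59a and Serping1, against 37.4% of tested probe sets. Since the set was chosen with this contrast in view, nothing is read from these counts. The median log2 difference was 0.025 over the 8 and 0.03 over all tested probe sets. By that count 510 tested probe sets were higher and 307 lower without overlap (62.4% higher), a split that became 388 and 410 after quantile normalization (48.6%) and 323 and 527 after median scaling (38.0%).

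**Figure D3:**
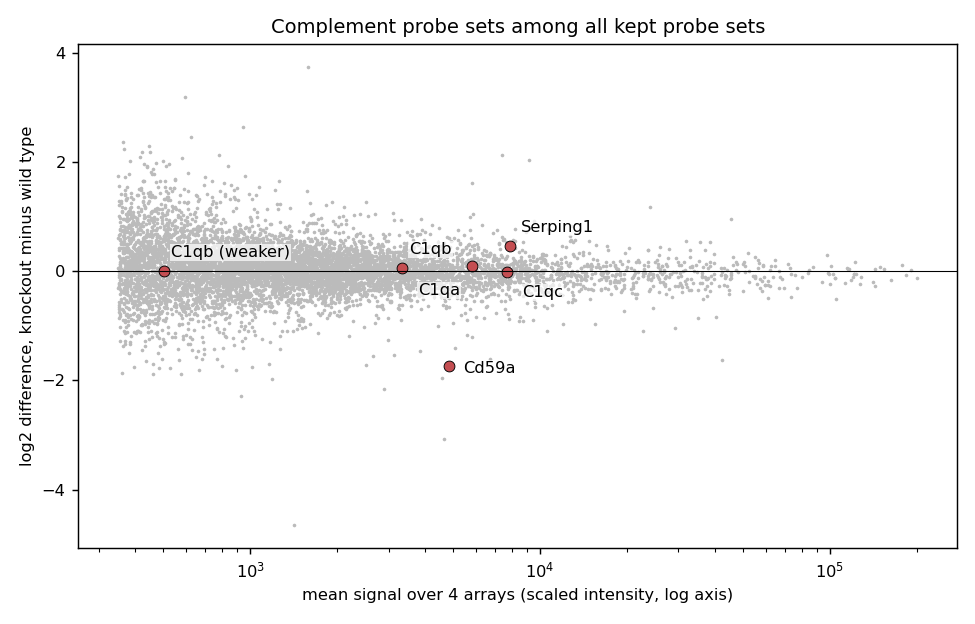
Log2 difference, knockout minus wild type, against mean signal over 4 arrays (log axis) for the 7453 tested probe sets (grey) and the 6 complement probe sets among them (red). Cd59a lies at -1.73, with 16 probe sets below it, Serping1 at 0.46, and the C1q probe sets near 0.

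Genes beside Cd59a on mouse chromosome 2 gave mixed values. Cd59b, the adjacent copy of Cd59a, gave 752 and 614 in wild type and 710 and 874 in knockout, with overlap (log2 0.21, SE 0.24). As the copies are alike in sequence, how far either probe set reads both was not tested. Of the 10 nearest genes with a tested probe set, 5 on each side in the order of the RefSeq assembly GRCm38.p6, the median log2 difference was 0.20 and the range -0.76 to 0.50. Rcn1, a calcium-binding protein of the endoplasmic reticulum, held the lowest value, with 1011 and 1054 in wild type against 676 and 546 in knockout. It was the only 1 of the 10 at least 1.5-fold apart without overlap, as 11% of all tested probe sets were. Lmo2 and Wt1, both transcriptional regulators, were higher on both knockout arrays (log2 0.32 and 0.50), and Fbxo3 was lower on both (log2 -0.19). Caprin1, Cat, Hipk3, Eif3m and Immp1l overlapped. By limma 0 of the 10 passed over all probe sets. Rcn1 alone had an unadjusted p under 0.05 (adjusted p = 0.694), as 6.79% of all tested probe sets did.

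**Figure D4:**
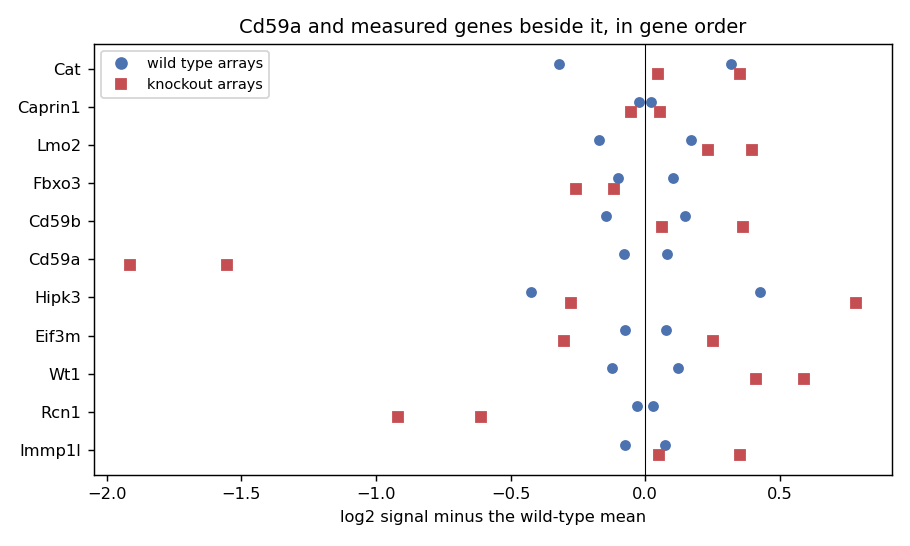
Log2 signal on each array relative to the wild-type mean for Cd59a and the 5 nearest tested genes on each side, in gene order; blue circles are wild type, red squares knockout. The Cd59a knockout arrays lie apart on the left, Rcn1 is lower by a smaller step, and most neighbours overlap or are slightly higher.

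The probe sets whose 4 arrays most resembled those of Cd59a were sought by the Euclidean distance between log2 values centred on each probe set's own mean. The nearest named ones were Pea15a, an adaptor in growth factor signalling, at a distance of 0.0952, Tollip, an adaptor of Toll-like receptor signalling, at 0.165, Plbd1, a lysosomal phospholipase-like protein, at 0.285, and Srsf10, a splicing factor, at 0.433. The fifth, at 0.438, carried no gene name. Pea15a gave 1615 and 1523 in wild type and 425 and 506 in knockout, and Plbd1 gave 5672 and 5582 against 1814 and 2288. With 4 arrays in 2 genotypes, likeness to Cd59a amounts to a similar step down on the same arrays. Nearest to the stronger C1qb probe set were Mmp14, a membrane-bound matrix protease, Mapk8ip1, Commd7, Zwint and a probe set without a gene name, at distances of 0.0317 to 0.0358, and these varied as little as C1qb did.

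Other genes of the cascade were taken by role, 44 in all. Of these 28 had a probe set annotated to them alone, and 13 were bright enough to be tested. By limma 0 of the 13 passed in either direction over all probe sets and 1, Clu, had an unadjusted p under 0.05, as 6.79% of all tested probe sets did; 7 had a higher and 6 a lower mean in knockout, with a median of 0.092 against 0.03 over all tested probe sets. By the count without a model 2, Clu and C1qbp, were at least 1.5-fold lower and 0 higher, where 4.12% and 6.84% of all tested probe sets were, and C1qbp rested on 1 knockout array.

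Among the regulators, Clu, or clusterin, a secreted chaperone that binds the terminal complex, was lower on both of its probe sets. The stronger gave 22402 and 18647 in wild type and 9841 and 11055 in knockout (log2 -0.97, SE 0.22), and the weaker gave 12075 and 8184 against 6158.5 and 4743 (log2 -0.88, SE 0.30). The genotypes did not overlap on either (limma adjusted p = 0.694 for both). Cd59a and Clu both act on the terminal steps, and neither passed. Of the 4 tested regulators taken by role, 1 had a higher mean in knockout, Cd59b, the adjacent copy of Cd59a (log2 0.21, with overlap). Vtn, or vitronectin, which also blocks membrane insertion, gave 778.5 and 1430 in wild type and 590.3 and 961 in knockout, with overlap, and Cr1l, the rodent membrane regulator Crry, had a log2 difference of -0.075.

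Among the receptors, C1qbp, a mitochondrial protein first found as a C1q-binding protein, gave 873 and 755 in wild type and 735 and 201 in knockout. Its log2 difference of -1.08 (SE 0.65) rested on knockout replicate 2, and its dimmer probe set had a difference of 0.39. Cd93, an endothelial protein once taken for a C1q receptor, gave 3295 and 2505 against 2397 and 2458 (log2 -0.24). C5ar1, the receptor for the C5 fragment C5a, gave 1683 and 1530 against 1795 and 2083 (log2 0.27). C3ar1, which binds the C3 fragment C3a, and the integrin subunit Itgax overlapped, at 0.11 and 0.20.

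Among the early components C1ra, a C1 protease, gave 993 and 1021 in wild type and 1045 and 1140.5 in knockout on its stronger probe set (log2 0.12). Its other probe set, too dim to be tested, ran the other way with overlap (log2 -0.82). Both carry a cross-hybridizing suffix. C2, a protease of the classical and lectin routes, and Fcna, a ficolin that recognizes sugars, overlapped (log2 -0.10 and 0.092). Of the terminal proteins C8g alone was bright enough, at 476 and 241 in wild type and 461 and 713 in knockout, with overlap.

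**Figure D5:**
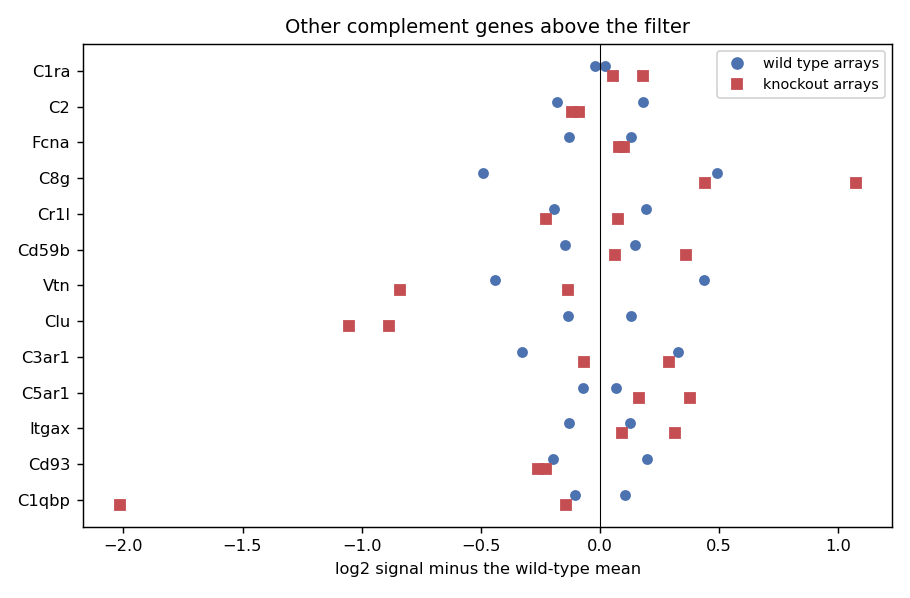
Log2 signal on each array relative to the wild-type mean for the 13 other complement genes bright enough to be tested, by the strongest tested probe set of each; blue circles are wild type, red squares knockout. Clu is lower on both knockout arrays, C1qbp has 1 knockout array far below the rest, and most others overlap.

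Markers of the cell types that make or carry complement proteins were measured on the same arrays; in whole ventricle RNA, fewer cells of a type and less RNA per cell cannot be told apart. The counts without overlap below stand against 37.4% of all tested probe sets, and sums of signal are weighted to the brightest probe sets. Beside the overlapping C1q signals, 12 of 14 tested macrophage markers had a higher mean in knockout, 6 of the 14 did not overlap, and the median was log2 0.21 (0.13 with the stricter filter, 0.087 with median scaling). The summed signal of all 20 macrophage markers on the array, dim ones included, was 24159 and 21608 in wild type and 27889 and 23380.1 in knockout. On their strongest probe sets Csf1r, Cd14, Cd68 and Lyz2 were above the floor on all arrays. Adgre1, the F4/80 antigen, was too dim to be tested, at 396.5 and 500 in wild type and 176 and 202 in knockout. Its weaker probe set, mostly under the floor, ran the other way with overlap (log2 0.52). Of the other dim macrophage markers, Fcer1g was higher without overlap on its stronger probe set (log2 0.93), with both wild-type values under the floor. The rest overlapped, with differences in either direction. Among the tested macrophage markers Fcgr1, an antibody receptor, had the only difference over 1.5-fold without overlap, at 551 and 306 against 1156 and 580. Of all tested probe sets 11% had such a difference.

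Beside the higher Serping1 signal, 9 of 11 tested fibroblast markers had a higher mean and 8 of the 11 did not overlap, with a median of 0.31 (0.18 with median scaling). The summed signal of all 12 fibroblast markers on the array, a dim one included, was 74478 and 85921 in wild type and 100331 and 103639 in knockout. Of that sum Dcn alone gave 42239.9 and 50324 in wild type and 58034 and 58177 in knockout. Lum gave 2791 and 3809 against 5104 and 6196, and the strongest Col1a1 probe set gave 3354 and 4080 against 4802 and 6781. Other lists also had members higher in knockout. Of 4 tested adipocyte markers 3 had a higher mean and 3 did not overlap, with a median of 0.64 (0.26 when the probe sets of a gene were averaged); Adipoq gave 189 and 297 against 686 and 604, and the stronger Lep probe set 1479.5 and 1096 against 1927 and 2409, while the weaker Lep probe set ran the other way with overlap (log2 -0.76). Of 7 tested smooth muscle markers 2 had a higher mean. Their median of -0.082 turned to 0.024 without wild-type replicate 2 and to 0.038 without knockout replicate 2. The 2 without overlap went opposite ways. Acta2, smooth muscle α-actin, gave 4135 and 2909 in wild type against 18753 and 10915.5 in knockout. Kcnj8 gave 1631.5 and 2103 against 1355 and 1339. Of 4 tested erythroid markers 3 had a higher mean. Their median of 0.093 turned to -0.17 without wild-type replicate 2, to -0.18 without knockout replicate 2 and to -0.03 with median scaling. The 2 without overlap again went opposite ways. Car2 gave 697 and 650 in wild type against 1524 and 1351.5 in knockout, and Slc4a1 gave 916 and 890 against 754 and 743. The 5 tested lymphocyte markers and the 3 of granulocytes and mast cells all overlapped, with medians of -0.16 and -0.39 that turned to 0.23 and 0.15 without wild-type replicate 1 and to 0.021 and 0.083 without knockout replicate 1; the second became 0.47 with a stricter filter.

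Beside the lower Cd59a and Clu signals, 8 of 10 tested endothelial markers had a lower mean, 3 of the 10 without overlap, with a median of -0.13 (-0.26 with median scaling and without wild-type replicate 2, -0.071 when the probe sets of a gene were averaged). Their summed signal was 39809.7 and 32980.0 in wild type and 32452 and 29443 in knockout. Tie1 and Cdh5 had log2 differences of -0.57 and -0.54. The 11 tested heart muscle markers had a median of -0.13, with 10 lower, which became -0.015 without knockout replicate 1, -0.27 without knockout replicate 2, -0.056 after quantile normalization and -0.25 with median scaling. By limma 0 tested markers of any of these lists passed over all probe sets. Lum, Acta2, Adipoq, Lep and Car2 had an unadjusted p under 0.05, as 6.79% of all tested probe sets did. Of 10 hepatocyte markers on the array, 1, Cps1, was bright enough to be tested, and it overlapped (log2 0.99). Alb, albumin, gave 65.5 and 98.1 in wild type and 379.5 and 576 in knockout. Its mean was below the filter and both wild-type values were under the floor. Of the other dim hepatocyte markers, Apoa1 alone was higher without overlap (log2 0.55). The rest overlapped, with differences in either direction, such as -0.51 for Ahsg and 0.094 for Fga. The ratio of 5' to 3' signal was 0.966 and 0.909 in wild type and 0.694 and 0.813 in knockout for the β-actin controls, and 1.04 and 1.01 against 0.994 and 0.968 for Gapdh. The part of these cell markers and ratios in the Cd59a, Clu and Serping1 values was not tested.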

How the data were processed

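The deposited values are 1 signal intensity per probe set and array, linear and scaled by array before deposit; their software, summary method and background correction are not given in the sources used here. Per the labels' protocols, RNA was copied with an oligo-dT T7 primer into biotinylated cRNA. Symbols came from the platform annotation, and 10839 of 10855 probe sets with 1 symbol matched RefSeq (GRCm38.p6); 396 had several symbols and 1237 none. The 66 controls were left out. Signals under 110 (20th percentile) were set to it, log2 was taken, and probe sets with a mean under 350.6 (40th percentile) were not tested, leaving 7453. Groups, taken from the titles, were fitted by lmFit and eBayes of limma 3.58.1 (R 4.3.3; Benjamini-Hochberg, threshold 0.05); steps were tested on simulated data. With 2 arrays a side, the smallest exact permutation p is 0.333. Lists used each gene's strongest tested probe set, while sums of signal took the strongest probe set of every listed gene on the array, dim ones included. Members and lists were chosen with earlier results of these data known. Named were all members, Esrra, the 5 probe sets nearest in pattern to Cd59a and to C1qb, 5 neighbours on each side of Cd59a, and, of lists beside a complement result, genes 1.5-fold apart without overlap or else the lowest p; genes named beyond these, and the choice of which lists to detail, followed sight of the values. Floors, filters, scalings, the prior, a block and single arrays were varied.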

Additional observations from a re-analysis of the deposited data

How the results depend on the processing

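Over 13 alternatives the Cd59a and Serping1 differences kept their sign, and the Cd59a probe set stayed at least 1.5-fold apart without overlap in each. Only quantile normalization and median scaling could have turned these signs. Floors, filters, the prior, the block and the suffixes left both differences unchanged, and leaving out 1 array cannot turn genotypes that do not overlap. Of 103 values of the 8 complement probe sets under alternatives, 16 had the other sign, and 10 of the 16 came from leaving out 1 array. By more than the spread within genotypes 2 moved, both under median scaling. With 2 arrays per genotype, leaving out 1 can never move a value past that spread, so the count of 2 is no measure of stability. The count of complement probe sets at least 1.5-fold apart without overlap ran from 1 to 2 when 1 array was left out, with the weaker C1qb probe set added without knockout replicate 1 or knockout replicate 2; with a lone array in a genotype, that array is assumed to vary like the others and overlap is easier to avoid. The number of all probe sets past the threshold, 1 as reported, was 0 with the floor at the 5th or the 40th percentile, with no filter and without probe sets with cross-hybridizing suffixes, 2 with the stricter filter and 2 with the trend and robust prior, and 0 to 0 when 1 array was left out; those called were Esrra probe sets throughout. With the sample number as a replicate block it was 0. Deviations of same-numbered arrays correlated at 0.0113, so the numbers were not taken as pairs. No complement gene passed under any of these. Of 208 list medians under alternatives, 25 had the other sign and 32 moved by more than the spread between arrays. The causes were not tested. Low signals and 2 arrays per genotype limit what can be seen of Hc, Cd55 and the weaker C1qb probe set.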

Other observations

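Among inhibitors of plasma proteases other than Serping1, 6 of 9 genes on the array were bright enough to be tested, with a median log2 difference of 0.039. Serpinf1, pigment epithelium-derived factor, was the one at least 1.5-fold apart without overlap, as 11% of all tested probe sets were. Its stronger probe set gave 1691 and 1074.5 in wild type and 2177 and 2191 in knockout, and its weaker gave 892 and 1444 against 1914 and 2276. Serpina3n, an acute-phase serpin, gave 4578 and 2610 in wild type and 2220.3 and 3462.5 in knockout, with overlap.

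Of the other complement genes, 15 on the array were too dim to be tested. Cfb, factor B of the alternative route, was lower on both of its probe sets. The stronger, with a cross-hybridizing suffix, gave 639 and 377 in wild type and 137 and 120.2 in knockout. The other gave 214 and 192 against 168 and 132. Cfp, properdin, gave 314 and 81.7 in wild type and 406 and 352 in knockout. The mannose-binding lectin Mbl1 gave 127 and 63.8 against 346 and 217, and Mbl2 gave 86.5 and 197.9 against 285.6 and 244.8. Itgam, a chain of complement receptor 3, gave 88.3 and 81.3 against 156 and 330.1. Each of these probe sets had a mean under the filter, so no test was made of them.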
